A study of Mus musculus with 27 samples.

Results

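Heat shock proteins and chaperones were followed in the nascent RNA of macrophages during an inflammatory and an alternative activation stimulus. The genes are the protein-coding genes of the Hsp90, Hsp70 (Hspa), Hsp110 (Hsph), chaperonin (Hspd and Hspe), small heat shock protein (Hspb), J protein (Dnaja, Dnajb and Dnajc), Bag and heat shock factor (Hsf) symbol families. Of the 45070 genes in the table, 87 carried such a symbol, and 60 of these reached at least 10 normalised reads in at least 3 of the 27 samples; they were tested with all other genes that passed, 13901 in total. The symbol rule also took in Hspbap1 and Hspbp1, which bind heat shock proteins and are not small heat shock proteins themselves. The genes were thus selected on their symbol and on reaching that minimum in measured values, so a gene could pass through a single group: Hsf5 passed only by its LPS 0.5 h samples and had to differ there, Hspa12a passed with 4 samples of 2 groups, and Hspe1 with 5 samples of 4 groups. Just outside, Dnajc28, Hsf4, Hspa12b and Hspb9 reached 10 reads in 1 sample each.

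Cells were BMDMs, primary macrophages grown from bone marrow, here of wild type male C57/BL6 mice aged 6 to 8 weeks. All 27 samples, the untreated ones included, received DMSO for 1 h. Cells were then left untreated, or given lipopolysaccharide (LPS, from the outer membrane of Gram-negative bacteria and sensed through TLR4) at 10 ng/ml or interleukin-4 (IL-4) at 10 ng/ml for 0.5, 1, 2 or 4 h, with 3 replicates in each of the 9 groups. Chromatin-associated RNA was sequenced, a fraction rich in transcripts still being made, so that a value speaks of transcription and unspliced RNA more than of the protein. The labels do not say whether replicates came from separate mice or cultures, so p-values measure the spread between these samples, which may be technical. These are bulk samples, in which fewer cells of a type and less RNA per cell cannot be told apart.

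Molecular chaperones bind unfolded proteins and help them fold, move between compartments or reach degradation. Hsp70 proteins do so in a cycle of ATP hydrolysis that J proteins start and that Hsp110 and some Bag proteins reset by nucleotide exchange. Hsp90 proteins act later on kinases, receptors and other signalling proteins. In a heat shock the factor HSF1 binds heat shock elements, repeats of the unit nGAAn, and induces many of these genes; chaperones of the endoplasmic reticulum answer instead to the unfolded protein response. Macrophages carry both systems, and several signalling proteins downstream of TLR4 are known clients of Hsp90.

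The whole series bore on these values in 2 ways. The deposited values had been scaled on invariant genes, and their totals ran from 3571492 to 4058199 in LPS samples and from 2469768 to 2790981 in untreated and IL-4 samples, so the direction of small LPS changes depended on the scaling, and LPS counts below are also given with median-of-ratios scaling and with equal totals. Replicate 1 stood apart in every group: over the 4770 genes whose mean was 100 or more, the SD of the log2 ratio was 0.187 to 0.272 between replicates 2 and 3 and 0.433 to 0.538 between replicates 1 and 2. All 9 macrophage markers passed the filter, with summed values of 10049 to 11163 in untreated samples, 11325 to 19852 in LPS samples and 10985 to 14065 in IL-4 samples. None of the T cell, B cell, neutrophil, mast cell or epithelial markers passed, and their summed values stayed at or below 28 per list. Fibroblast markers, 2 of 3 tested, summed to 37 to 88, 31 to 206 and 28 to 207 in untreated, LPS and IL-4 samples, and dendritic cell markers, 2 of 3 tested, to 2 to 6, 5 to 96 and 10 to 22. Their part in the results was not tested.

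Promoter sequence was at hand for 47 of the 60 genes, as the 250 bases before and 50 after the RefSeq start of each gene (GRCm38.p6). The other 13, with Hsp90aa1, Hsp90ab1, Hspa8 and Hsf1 among them, had no entry and were not searched. A heat shock element of 3 units, which is GAA, TTC and GAA or TTC, GAA and TTC with 2 bases between units, on either strand, stood in 4 of the 47 (8.5%), against 0.66% of 27025 genes in the same table. These were Dnajb6, Hsph1 and the head-to-head pair Hspd1 and Hspe1, which share 1 element. The shorter 2-unit form, GAANNTTC or TTCNNGAA, which every 3-unit element also holds, stood in 11 of 47 (23.4%) against 16.97%. The element of the endoplasmic reticulum stress response, CCAAT and CCACG with 9 bases between them on either strand, stood in 3 of 47 (6.4%), in Hspa5, Hsp90b1 and Dnajc3, against 0.14% of all genes. The sites are shown on the strand of the gene, with the motif in capitals, since the values of these genes are compared below. Positions count bases from the first base of the gene, which is 0.
Dnajb6, chr5:29735844-29735872, plus strand, motif 46 to 34 bases upstream: agctccgaGAATCTTCCGGAAcgctagac
Hspe1, chr1:55088056-55088084, plus strand, motif 84 to 72 bases upstream: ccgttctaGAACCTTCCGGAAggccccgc
Hsph1, chr5:149636280-149636308, minus strand, motif 15 to 27 bases downstream of 1 annotated start and 36 to 48 of another: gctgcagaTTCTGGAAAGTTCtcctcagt
Hspa5, chr2:34772020-34772048, plus strand, motif 65 to 47 bases upstream: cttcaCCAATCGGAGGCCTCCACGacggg
Hsp90b1, chr10:86705633-86705661, minus strand, motif 212 to 194 bases upstream: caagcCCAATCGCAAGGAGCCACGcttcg
Dnajc3, chr14:118937822-118937850, plus strand, motif 105 to 87 bases upstream: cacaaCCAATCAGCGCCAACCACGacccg
A second match in Hsp90b1 lay on the other strand, 107 to 89 bases upstream. At 4 h of IL-4 the 3 genes with the stress element were higher, and so were Hspd1 and Hsph1 of the 4 with the 3-unit heat shock element. Of all genes tested 13.4% were higher then. Without any 1 replicate the calls of Hspa5 and Hsp90b1 were lost, as was that of Hspd1 without replicate 2 or 3 and that of Hsph1 without replicate 1 or 2. At 0.5 h of LPS Hspa5 was higher and Dnajc3 lower in the first group, and Dnajb6 higher and Hsph1 lower in the second, with the others not called. Of all genes 19.6% were higher and 34.4% lower then, and the call of Dnajc3 was lost with median-of-ratios scaling and without replicate 2 or 3. A match is a stretch of letters and no evidence of binding.

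In the LPS course 55 of the 60 chaperone genes changed (F test over the 4 times in limma, Benjamini-Hochberg adjusted p under 0.05), which was 91.7% beside a background of 87.6% of all genes tested. The largest change was a rise in 18 (background 32.9%) and a fall in 37 (background 54.7%). In the IL-4 course 25 of 60 changed, 41.7% beside a background of 40.3%; the largest change was a rise in 17 (background 19.4%) and a fall in 8 (background 20.9%). The 2 courses share their untreated samples. Changed in both were 23 genes, in LPS alone 32, in IL-4 alone 2 and in neither 3. For all genes tested this split was not counted, so it is not read as particular to the chaperone genes. Dnajc10, Dnajc30 and Hspe1 were the 3 whose F test passed in neither course, and they were picked out after their values were seen.

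By time, the genes falling under LPS were ahead at first. At 0.5 h, 15 chaperone genes were above untreated cells and 28 below (backgrounds 19.6% and 34.4% of all genes), at 1 h 16 and 22 (24.8% and 39%), at 2 h 16 and 17 (26.9% and 39%) and at 4 h 17 and 16 (25.9% and 37.6%). Their median log2 difference was -0.65, -0.34, -0.10 and -0.01 at the 4 times, beside an all-gene median of -0.24, -0.30, -0.29 and -0.26. LPS changes below are therefore read against a shift of that size. With median-of-ratios scaling, which takes most of the shift away, the counts were 17 and 24, 19 and 16, 20 and 11, and 18 and 11; with totals made equal they were 10 and 36, 6 and 39, 7 and 29, and 10 and 29. Called in the same direction under all 3 scalings were 10 higher and 24 lower at 0.5 h, 6 and 16 after 1 h, 7 and 11 after 2 h, and 10 and 11 at 4 h. The counts higher at 0.5 h, under each scaling, include Hsf5, which passed the filter only through those samples. Without replicate 1 the counts were 16 and 30, 16 and 25, 19 and 16, and 20 and 18.

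Under IL-4 the order was the opposite, with few calls early and mostly rises late. At 0.5 h 3 chaperone genes were higher and 4 lower (backgrounds 8.15% and 8.14%), after 1 h 5 and 6 (11.1% and 9.83%), after 2 h 16 and 3 (14.3% and 13.2%) and at 4 h 18 and 3 (13.4% and 12.5%). The median log2 difference over the 60 was -0.10, -0.02, 0.13 and 0.16, beside all-gene medians of -0.02, -0.01, -0.00 and 0.02. Scaling mattered less: median-of-ratios gave 3 and 4, 4 and 7, 13 and 5, and 15 and 4, and equal totals 2 and 9, 3 and 9, 15 and 5, and 18 and 3. Held under all 3 scalings were 2 higher and 4 lower, 3 and 6, 13 and 3, and 15 and 3. The counts higher at 4 h, under each scaling, include Hspa12a. That gene passed the filter only through those samples (16, 12 and 13 reads) and a 4 h LPS sample of 10. Samples with the same replicate number deviated together here, and with a replicate block the counts at 0.5 and 1 h grew to 5 and 7, and to 11 and 9. The block also added falls late: Dnajb4, Dnajb13, Dnajc5, Dnajc12 and Dnajc18 at 2 h, and Dnajc12, Dnajc18 and Hspa4l at 4 h. Rises that it added were Dnaja3 and Hspd1 at 2 h and Hspa9 and Hspa13 at 4 h. Leaving out replicate 2 or 3, which keeps replicate 1 that stood apart, lowered the counts. Without replicate 2 they were 2, 5, 11 and 7 in all at the 4 times, and without replicate 3 they were 2, 5, 7 and 10. Without replicate 1 they were 5 and 3, 6 and 7, 13 and 6, and 15 and 6.

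**Figure D1:**
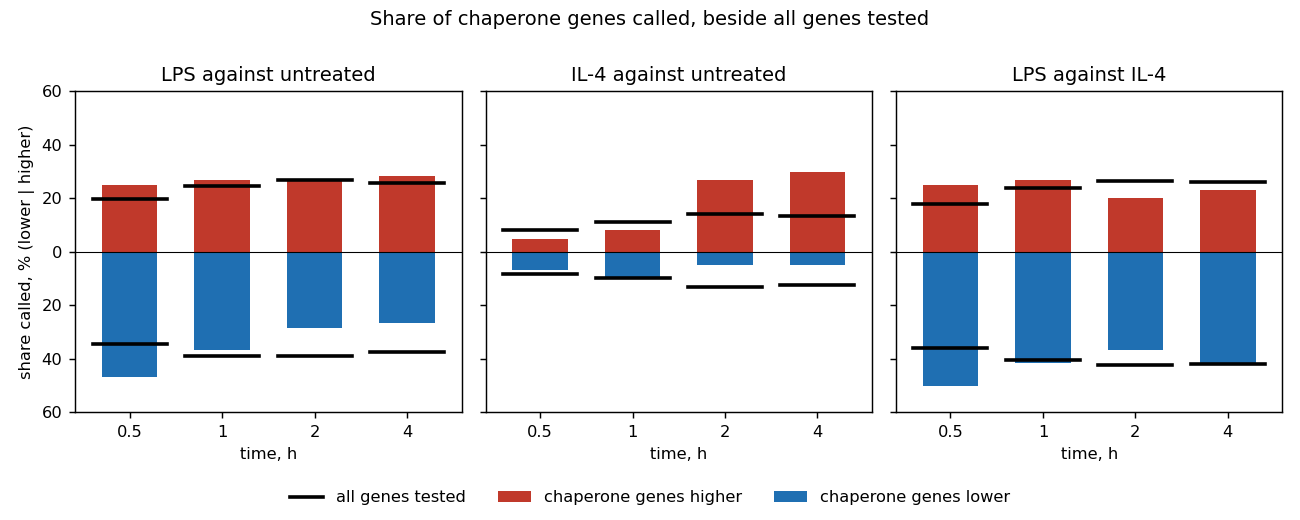
Share of the 60 chaperone genes called higher (red, up) or lower (blue, down) at each time, in percent, with a black line for the share of all 13901 genes tested. At 2 and 4 h of IL-4, 26.7% and 30% were higher beside backgrounds of 14.3% and 13.4%, and at 0.5 h of LPS 46.7% were lower beside 34.4%. The shares include Hspa12a, higher at 4 h of IL-4, and Hsf5, higher at 0.5 h of LPS, which passed the filter largely or only through those groups.

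**Figure D2:**
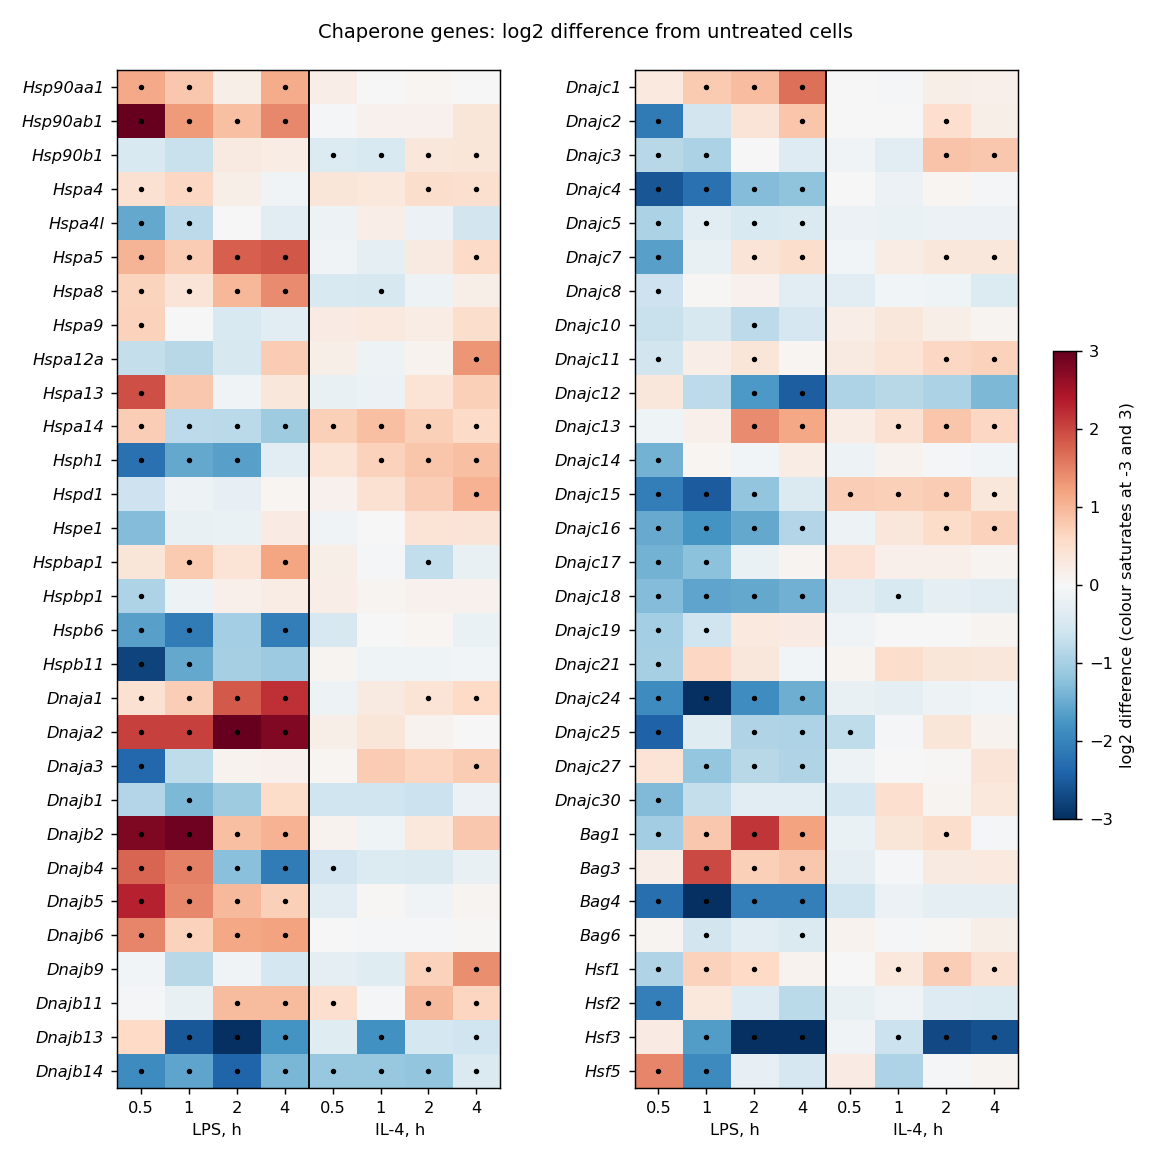
Log2 difference from untreated cells for each of the 60 genes (rows, by family) at the 4 times of LPS and of IL-4 (columns), fitted on log2(normalised read count + 1) with 3 samples per group. A dot marks an adjusted p under 0.05; colours saturate at -3 and 3, so the values of -5.08 and -6.68 for Hsf3 at the later LPS times look alike.

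The Hsp90 genes did not move as one. Hsp90ab1, the constitutive cytosolic Hsp90 (chr17:45567778-45573261, GRCm38, minus strand), gave the largest early rise of the family. Its normalised read counts were 46, 36 and 38 in untreated cells and 442, 318 and 252 at 0.5 h of LPS, then 88, 109 and 97 after 1 h, 91, 79 and 58 after 2 h and 113, 140 and 84 at 4 h. Every LPS sample lay above every untreated one, with the 0.5 h samples far above the rest. The differences were 3.01 ± 0.23 (SE) at 0.5 h, 1.27 ± 0.23 after 1 h, 0.89 ± 0.23 after 2 h and 1.44 ± 0.23 at 4 h on the log2(value + 1) scale, with adjusted p of 4.21e-08, 0.000194, 0.00318 and 5.35e-05; all log2 differences and folds below are on that scale. At 2 h the call was lost with equal totals (0.25, adjusted p = 0.343) and without replicate 2. Under IL-4 the gene showed values of 32 to 82, with no call at any time.

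Hsp90aa1, the stress-inducible cytosolic Hsp90, was low in these samples. It stood at 11, 11 and 23 in untreated cells and 36, 34 and 28 at 0.5 h of LPS, so that the groups were separate. The log2 difference was 1.15 ± 0.29 (adjusted p = 0.00332) at 0.5 h, 0.81 ± 0.29 (0.0225) after 1 h, 0.18 ± 0.29 (0.592) after 2 h and 1.11 ± 0.29 (0.00323) at 4 h. All 3 calls were lost without replicate 2, those at 1 and 4 h with equal totals, and that at 1 h also without replicate 1 and with sample weights. In IL-4 samples it lay between 11 and 21.

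Hsp90b1, the Hsp90 of the endoplasmic reticulum, turned under IL-4. Untreated samples held 383, 430 and 417 reads, the 0.5 h samples 282, 305 and 341, the 1 h samples 262, 355 and 281, the 2 h samples 495, 533 and 530 and the 4 h samples 558, 549 and 482. All samples of the first hour lay below, and all those of 2 and 4 h above, the untreated range. The log2 differences were -0.41 and -0.46 (SE 0.11, adjusted p = 0.0208 and 0.00768) and then 0.34 and 0.37 (0.0337 and 0.0249); each of the 4 calls was lost without replicate 3, and all but that at 1 h also without replicate 2, as was that at 4 h without replicate 1. Under LPS replicate 1 set it apart: 285, 764 and 554 after 2 h and 312, 607 and 581 at 4 h, with differences of 0.27 and 0.23 that were not called (adjusted p = 0.423 and 0.513). Without replicate 1 they were 0.62 (0.00153) and 0.49 (0.00781).

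**Figure D3:**
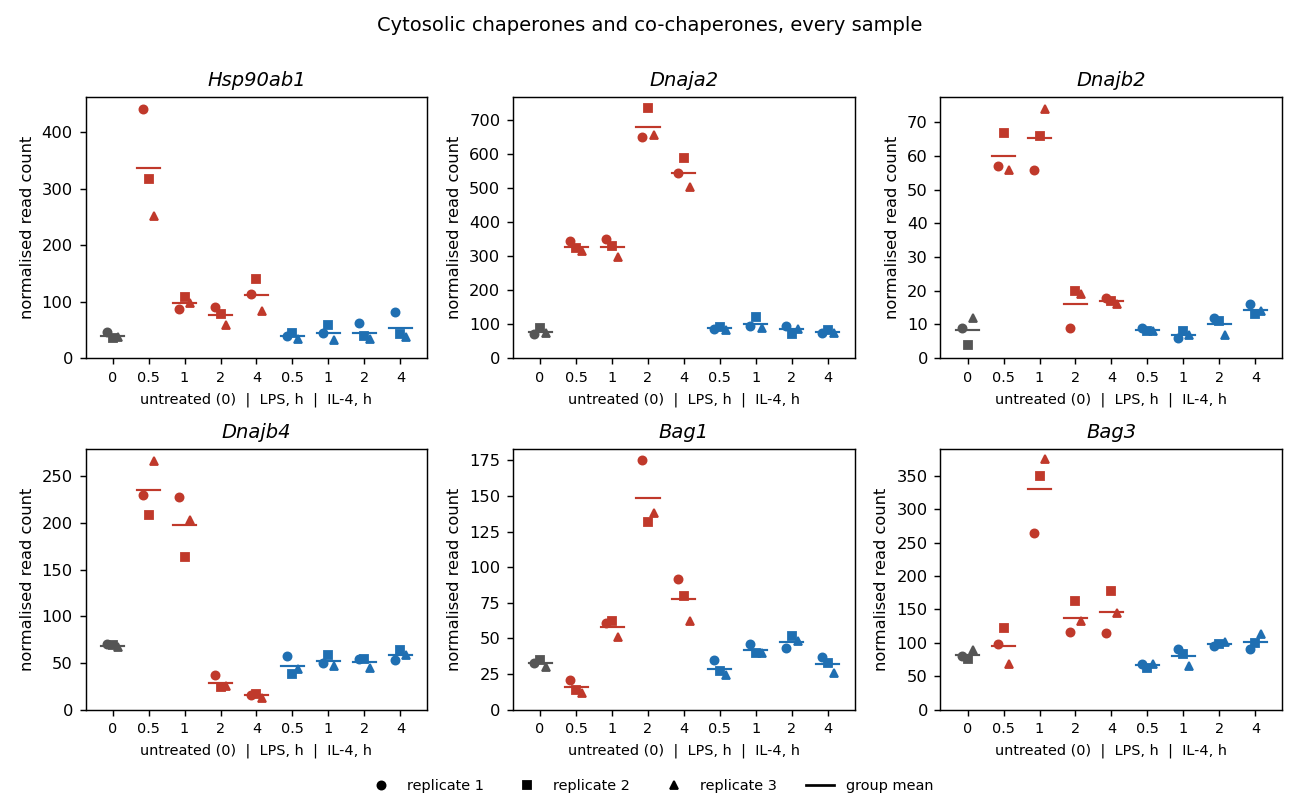
Normalised read count in every sample (circle, square and triangle for replicates 1, 2 and 3) and group mean (line) for 6 genes of the cytosolic system, untreated in grey, LPS in red and IL-4 in blue, on linear axes from 0. Hsp90ab1 peaks at 0.5 h of LPS, Bag3 after 1 h, and Dnaja2 and Bag1 after 2 h, and Dnajb4 goes from above to below untreated cells.

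Of the 8 genes with an Hspa symbol that passed, 6 were higher and 1 lower at 0.5 h of LPS (backgrounds 19.6% and 34.4%), and 2 and 1 at 4 h (25.9% and 37.6%). With median-of-ratios scaling these counts were the same, and with equal totals they were 2 and 2, and 2 and 4, the 0.5 h calls of Hspa8, Hspa9 and Hspa14 being lost and that of Hspa4 turning its sign. Hspa5 (BiP, the Hsp70 of the endoplasmic reticulum, chr2:34772090-34776529, plus strand) rose at every time of LPS. Untreated cells held 86, 99 and 79 reads, the 0.5 h samples 182, 180 and 170, the 1 h samples 165, 158 and 129, the 2 h samples 244, 373 and 315 and the 4 h samples 246, 446 and 307. No LPS sample reached down to the untreated range. Log2 differences were 1.01, 0.77, 1.79 and 1.87 (SE 0.20, adjusted p = 0.000561, 0.00348, 1.15e-06 and 7.25e-07), and with equal totals the 1 h value was 0.19 (0.405). Under IL-4 only the 4 h samples, 128, 138 and 126, gave a call, 0.57 ± 0.16 (adjusted p = 0.0163), which was lost without any 1 of the 3 replicates.

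Hspa8, the constitutive cytosolic Hsp70 (Hsc70), followed the same order at a smaller size. From 44, 42 and 44 in untreated cells it went to 71, 67 and 69 at 0.5 h of LPS and 120, 121 and 114 at 4 h. The groups were well apart, and replicates were close. The log2 difference was 0.66, 0.39, 1.00 and 1.43 (SE 0.16) at the 4 times, with adjusted p of 0.00227, 0.0402, 4.18e-05 and 9.5e-07. With equal totals the sign at 1 h flipped to -0.18 and the 0.5 h value was 0.16, neither called; the 1 h call was also lost without any 1 replicate and that at 0.5 h without replicate 3. Under IL-4 it was lower after 1 h, at 32, 31 and 29 (-0.49 ± 0.15, adjusted p = 0.0368), a call lost when any 1 replicate was left out. Hspa8 also holds 3 small nucleolar RNA genes in its span, Snord14c, Snord14d and Snord14e, with group means of up to 15 reads.

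Hspa13, a small Hsp70 of the endoplasmic reticulum, showed a brief pulse. Its values were 27, 44 and 40 in untreated cells, 114, 156 and 156 at 0.5 h of LPS, 49, 72 and 74 at 1 h and 19, 50 and 40 at 2 h. All samples of the first hour lay above the untreated ones, and those of 2 h overlapped them. The difference of 1.93 ± 0.35 at 0.5 h was called (adjusted p = 0.000287) and that of 0.80 at 1 h was not (0.0577), though it passed with the replicate block (0.000968). At 4 h of IL-4 it stood at 46, 71 and 65, a difference of 0.70 (0.121), which passed with the replicate block (0.00515).

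Hspa14, an Hsp70 linked to the ribosome, parted between the stimuli. Untreated samples held 71, 109 and 95 reads, LPS samples 96, 161 and 224 at 0.5 h and 34, 54 and 43 after 4 h, and IL-4 samples 168, 181 and 159 at 1 h. IL-4 values stayed above the untreated range at each time. Under IL-4 the log2 difference was 0.73, 0.90, 0.72 and 0.56 (SE 0.16, adjusted p = 0.00522, 0.00083, 0.00351 and 0.0165), and the calls at 0.5 and 4 h were lost without replicate 2 or 3 and that at 2 h without replicate 3. Under LPS it was 0.74, -0.79, -0.81 and -1.06 (SE 0.28, adjusted p = 0.0354, 0.0214, 0.0182 and 0.00383). The first 3 were lost without replicate 2 or 3, the rise at 0.5 h also with equal totals and the falls at 1 and 2 h with median-of-ratios scaling. LPS against IL-4 gave 0.01 at 0.5 h (adjusted p = 0.971) and -1.69 at 1 h (9.42e-07).

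The heat-inducible Hsp70 genes were at or near 0. Hspa1a and Hspa1b did not pass the filter, with no sample above 2 reads in any group and a median of 0. They are near-identical copies, and reads mapping to more than 1 place had been removed, so their values are uncertain. Hspa1l and Hspa2 were likewise below the filter, at no more than 4 and 2 reads. Hspb1, the heat-inducible small heat shock protein, and Hspb8 reached at most 2. Dnajb1, the J protein partner of the inducible Hsp70, was at 7, 18 and 17 in untreated cells, 6, 7 and 2 at 1 h of LPS and 12, 25 and 24 at 4 h. Its single call, -1.34 ± 0.54 at 1 h (adjusted p = 0.0403), was lost with median-of-ratios scaling and without replicate 2 or 3.

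Hsph1, an Hsp110 of the cytosol and holder of a 3-unit element, went opposite ways. Untreated cells held 16, 23 and 20 reads, LPS samples 4, 3 and 3 at 0.5 h and 9, 16 and 24 after 4 h, and IL-4 samples 31, 32 and 34 at 1 h and 44, 43 and 27 at 4 h. LPS samples of the first 2 h lay below the untreated range and those of IL-4 at 1 to 4 h above it. Log2 differences were -2.25, -1.52, -1.62 and -0.34 (SE 0.50, adjusted p = 0.00147, 0.0151, 0.0102 and 0.578) under LPS and 0.41, 0.70, 0.83 and 0.90 (SE 0.21, adjusted p = 0.242, 0.0304, 0.0098 and 0.00657) under IL-4. The direct difference was -2.65 ± 0.41 at 0.5 h (adjusted p = 7.16e-06) and -2.45 ± 0.41 at 2 h (1.24e-05). Leaving out replicate 2 ended the LPS call after 1 h, replicate 3 that after 2 h, and replicate 1 or 2 each of the 3 IL-4 calls; leaving out replicate 3 ended those at 1 and 2 h of IL-4.

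Counted as a list, the 15 classic HSF1-dependent genes left 11 to test, since Hspa1a, Hspa1b, Hspb1 and Hspb8 did not pass. Under LPS 5 were higher and 2 lower at 0.5 h, 6 and 3 after 1 h, 4 and 2 after 2 h, and 5 and 1 at 4 h. Those that rose were Hspa8, Hsp90ab1, Hsp90aa1, Dnaja1, Dnajb4 and Bag3, not each at every time. Those that fell were Hsph1, Hspa4l, Dnajb1 and, at 2 and 4 h, Dnajb4. Over the course the largest change was a rise in 5 and a fall in 4. The all-gene backgrounds were 19.6% higher and 34.4% lower at 0.5 h, then 24.8% and 39% after 1 h, 26.9% and 39% after 2 h, and finally 25.9% and 37.6%. With equal totals the list gave 3 and 5, 3 and 4, 2 and 5, and 3 and 2, and with median-of-ratios scaling 5 and 2, 6 and 1, 4 and 2, and 5 and 1. Their median log2 difference was 0.19, 0.39, -0.01 and 0.54, beside the all-gene medians of -0.24 to -0.30. Under IL-4 none was higher at 0.5 h, 1 after 1 h, 2 after 2 h and 3 at 4 h (backgrounds 8.15%, 11.1%, 14.3% and 13.4%), with medians of -0.14, -0.01, 0.13 and 0.30. At 0.5 h of IL-4 Dnajb4 alone was lower and at 1 h Hspa8, both calls being lost without replicate 2 or 3 and that of Hspa8 also without replicate 1.

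Of the heat shock factors, Hsf1 and Hsf3 passed the F test in both courses. Hsf1, the main stress-responsive factor (chr15:76477362-76501155, plus strand), fell and then rose under LPS. It was at 85, 97 and 95 in untreated cells, 47, 45 and 54 at 0.5 h, 122, 167 and 162 after 1 h, 111, 177 and 138 after 2 h and 89, 116 and 94 at 4 h. The 0.5 h samples lay below and those of 1 and 2 h above the untreated range, and the 4 h samples overlapped it. The differences were -0.91, 0.69, 0.59 and 0.10 (SE 0.18, adjusted p = 0.000655, 0.00429, 0.0104 and 0.648). With equal totals the later values were 0.11 at 1 h and -0.06 at 2 h, neither called, and leaving out replicate 3 also ended both, as replicate 2 did that at 2 h. Under IL-4 Hsf1 was at 127, 120 and 102 after 1 h, 170, 139 and 153 after 2 h and 138, 125 and 121 at 4 h, all above the untreated range, with differences of 0.33, 0.73 and 0.47 (SE 0.11, adjusted p = 0.0494, 0.000197 and 0.00617). The 1 h call was lost under 9 of the 11 alternatives, all but the higher minimum mean and the replicate block, and that at 4 h without replicate 2 or 3.

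Hsf2, a factor with roles in development, fell for a short time. Its values went from 77, 96 and 103 to 10, 26 and 36 at 0.5 h of LPS and back to 73, 132 and 152 at 1 h. The 0.5 h samples were apart from both neighbours. The difference at 0.5 h was -2.05 ± 0.38 (adjusted p = 0.000292) and no other was called, those of IL-4 included. With the replicate block the value of -0.81 at 4 h of LPS was called (adjusted p = 0.00425).

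Hsf3 (chrX:96306178-96456294, minus strand) showed the deepest fall of all 60 under both stimuli. Its values were 831, 513 and 495 in untreated cells, 781, 713 and 643 at 0.5 h of LPS, 211, 203 and 149 after 1 h, 15, 18 and 17 after 2 h and 6, 6 and 3 at 4 h. After 0.5 h each group lay below the one before it, with no overlap. LPS differences were 0.25, -1.68, -5.08 and -6.68 (SE 0.24, adjusted p = 0.391, 1.97e-05, 5.64e-11 and 2.59e-12), the last being 103-fold. Under IL-4 it was at 104, 79 and 88 after 2 h and 106, 91 and 91 at 4 h, with differences of -0.09, -0.65, -2.72 and -2.62 (SE 0.20, adjusted p = 0.834, 0.0376, 3.5e-07 and 6.56e-07); the 1 h call was lost without replicate 2 or 3. LPS against IL-4 gave -4.06 ± 0.22 at 4 h (adjusted p = 5.42e-14). The gene overlaps Heph, on the other strand, over 859 bp, and Heph had a mean of 8 reads in untreated cells.

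**Figure D4:**
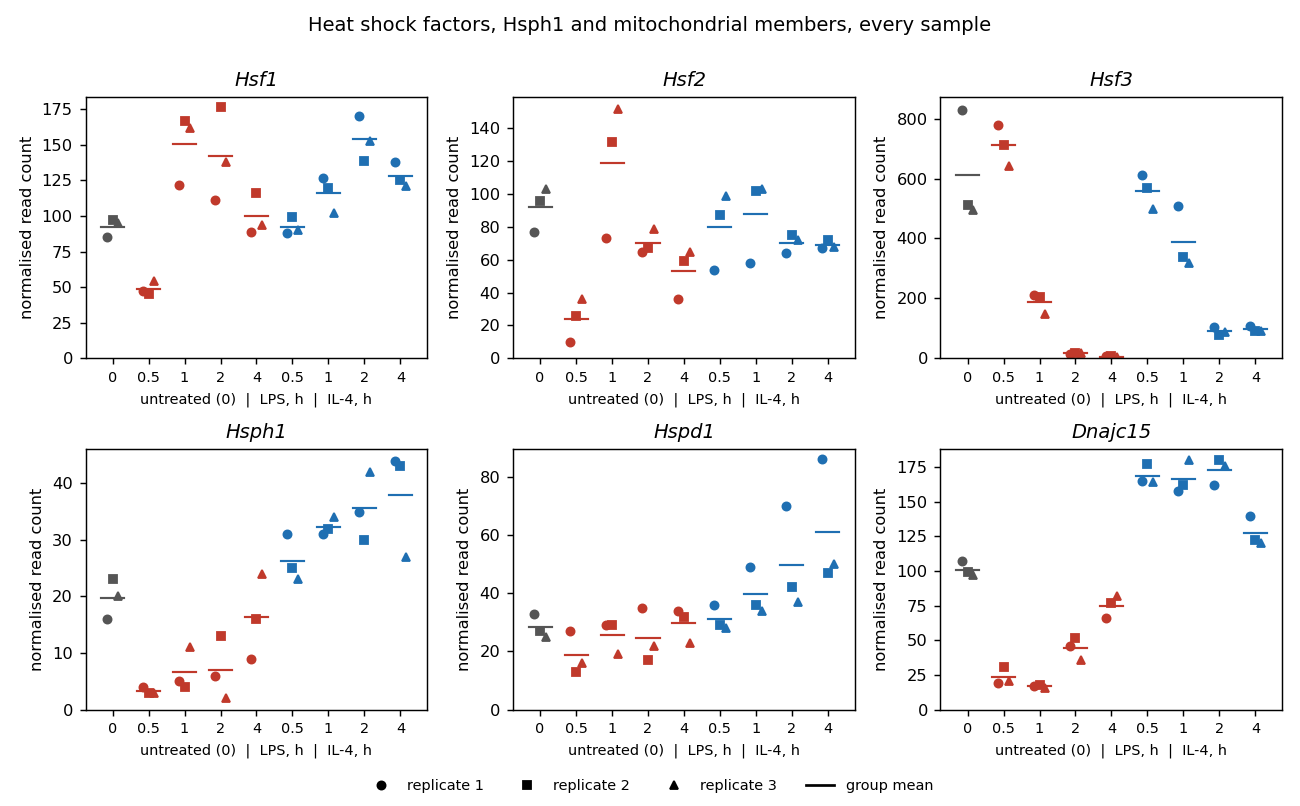
Normalised read count in every sample (symbols for replicates 1 to 3, line for the group mean) of the heat shock factors Hsf1, Hsf2 and Hsf3, of Hsph1 and of the mitochondrial members Hspd1 and Dnajc15, on linear axes from 0; untreated grey, LPS red, IL-4 blue. Hsf3 falls from 495 to 831 reads to 3 to 6 at 4 h of LPS, and Dnajc15 and Hsph1 lie below untreated cells early in LPS and above them in IL-4.

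Among the class A and B J proteins, which deliver substrates to Hsp70, some LPS changes were large in either direction. Of 3 class A genes 2 were higher and 1 lower at 0.5 h of LPS, and 2 and none at 4 h. Of 9 class B genes 4 and 1, and 4 and 3, were called (backgrounds 19.6% and 34.4%, and 25.9% and 37.6%). Median-of-ratios scaling gave the same, and equal totals 1 and 1, 2 and none, 4 and 2, and 1 and 4. Falls included Dnaja3 at 0.5 h (-2.36, adjusted p = 0.000186) and Dnajb13 at 2 h (-3.18, 2.75e-05), both named after their values were seen. Dnaja2 (chr8:85537633-85555361, minus strand) was at 71, 89 and 75 in untreated cells, 345, 323 and 314 at 0.5 h of LPS, 350, 330 and 298 after 1 h, 651, 734 and 655 after 2 h and 544, 588 and 502 at 4 h. The LPS samples formed 2 steps, both far above the untreated ones. Differences were 2.05, 2.05, 3.11 and 2.79 (SE 0.12, adjusted p = 1.49e-09, 8.83e-10, 4.96e-12 and 1.47e-11), or 8.61-fold at 2 h. Under IL-4, at 71 to 121 reads, no time was called.

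Dnaja1 rose steadily, with 69, 71 and 77 reads in untreated cells, 127, 119 and 119 at 1 h of LPS and 260, 403 and 355 at 4 h. The difference grew from 0.45 (adjusted p = 0.0282) at 0.5 h through 0.74 (0.000888) and 1.83 (7.63e-08) to 2.19 (9.41e-09) at 4 h, with an SE of 0.16. At 0.5 h the sign flipped with equal totals (-0.06) and the call was lost without replicate 2 or 3, and at 1 h the value with equal totals was 0.17 (0.371). It was also higher at 2 and 4 h of IL-4, by 0.41 (0.021) and 0.59 (0.0024), the former lost without any 1 replicate. At 4 h the direct difference was 1.60 ± 0.15 (adjusted p = 1.05e-09).

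Dnajb2, a J protein with a ubiquitin-binding role, and Dnajb5 rose fastest. Dnajb2 went from 9, 4 and 12 to 57, 67 and 56 at 0.5 h and 56, 66 and 74 after 1 h, and then dropped to 9, 20 and 19 at 2 h. The samples of the first hour stood clear of all others. Its difference was 2.93 ± 0.34 at 1 h (adjusted p = 2.19e-06); the calls at 2 and 4 h, 0.90 and 1.05, were lost with equal totals or without replicate 2. Dnajb5 went from 21, 22 and 22 to 107, 127 and 99 at 0.5 h and declined to 45, 34 and 31 at 4 h, with a difference of 2.30 ± 0.20 at 0.5 h (adjusted p = 1.7e-07).

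Dnajb4 (chr3:152181580-152210083, minus strand), listed among the HSF1-dependent genes, crossed the untreated level. From 70, 69 and 67 reads it rose to 230, 209 and 267 at 0.5 h and 228, 164 and 203 at 1 h of LPS, and then fell to 37, 24 and 25 after 2 h and 16, 17 and 13 at 4 h. No LPS sample overlapped the untreated ones in either phase. Differences were 1.76, 1.50, -1.26 and -2.10 (SE 0.19, adjusted p = 1.99e-06, 6.09e-06, 3.16e-05 and 1.16e-07). The non-coding gene Gm40180 on the other strand covers 39.7% of its span; its group means were 34.7 in untreated cells and 17.3, 19, 4 and 6.33 at the 4 LPS times.

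Dnajb6, which keeps aggregation-prone proteins soluble, was singled out for its 3-unit element after its values were seen. It held 401, 336 and 352 reads untreated and 1271, 914 and 853 at 0.5 h of LPS, and stayed between 525 and 994 later. All LPS samples lay above the untreated range. Its differences were 1.46, 0.68, 1.17 and 1.21 (SE 0.16, adjusted p = 2.75e-06, 0.00199, 1.37e-05 and 1.02e-05); with equal totals the 1 h value was 0.10 (0.581). Under IL-4 the differences were between -0.06 and 0.05, none called.

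Class C J proteins were the largest family, with 22 tested. At 0.5 h of LPS none was higher and 17 were lower (backgrounds 19.6% and 34.4%), and at 4 h 4 were higher and 8 lower, or 18.2% and 36.4% beside backgrounds of 25.9% and 37.6%. With median-of-ratios scaling the counts were 1 and 13, and 5 and 4, and with equal totals none and 19, and 2 and 13. Under IL-4 1 and 1 were called at 0.5 h (8.15% and 8.14%), and 6 and none at 4 h (13.4% and 12.5%). Dnajc24, which acts in the diphthamide pathway, fell from 108, 149 and 134 reads to 11, 10 and 19 at 1 h of LPS, well apart (-3.24 ± 0.26, adjusted p = 3.46e-08). Dnajc7, a co-chaperone of both Hsp70 and Hsp90, fell from 353, 313 and 294 to 81, 118 and 114 at 0.5 h (-1.62 ± 0.15, adjusted p = 2.77e-07). By 4 h it stood at 514, 443 and 438, a rise of 0.54 (0.00476) that became -0.07 with equal totals and was lost without replicate 3.

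Dnajc13, an endosomal J protein, rose under both. It was at 867, 806 and 906 in untreated cells, 2231, 2316 and 2328 at 2 h of LPS and 1415, 1694 and 1524 at 2 h of IL-4. Neither set of 2 h samples overlapped the untreated ones, nor one another. The differences were 1.41 ± 0.10 (adjusted p = 8.32e-09) and 0.84 ± 0.08 (4.32e-06), and the direct one 0.57 ± 0.09 (7.47e-06), whose sign flipped with equal totals. The non-coding gene Gm46130 on the other strand covers 24.1% of the span and moved alike, from a mean of 352 to 928 and 628. Reads of overlapping genes cannot be parted where the strand setting of the counting is not given, which touches 21 of the 60 genes; for Dnajc19 the overlap with Fxr1 is 50.1% of its span and for Dnajc30 that with Bud23 65%.

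Of the 4 Bag genes, none was higher and 2 were lower at 0.5 h of LPS (backgrounds 19.6% and 34.4%), and 2 and 2 at 4 h (25.9% and 37.6%). With equal totals these were none and 3, and 1 and 2, and with median-of-ratios scaling none and 2, and 2 and 1. Bag3, which pairs Hsp70 with autophagy, was at 81, 76 and 89 untreated, 98, 122 and 68 at 0.5 h of LPS, 265, 350 and 375 at 1 h and 115, 178 and 144 at 4 h. Only at 0.5 h did the samples overlap the untreated ones, and those at 1 h were above all others. Differences were 0.19, 1.98, 0.73 and 0.80 (SE 0.22, adjusted p = 0.49, 1.32e-06, 0.00851 and 0.00463), and those at 2 and 4 h were lost with equal totals or without replicate 2. Its IL-4 values of 63 to 113 gave no call at a single time, though its F test passed.

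Bag1 (chr4:40936398-40948294, minus strand), which also binds the proteasome, turned from low to high. It held 33, 35 and 30 reads untreated, 21, 14 and 12 at 0.5 h of LPS, 61, 62 and 51 after 1 h, 175, 132 and 138 after 2 h and 92, 80 and 62 at 4 h. The groups did not overlap at any LPS time. Differences were -1.05, 0.81, 2.14 and 1.21 (SE 0.22, adjusted p = 0.000804, 0.00436, 3.95e-07 and 0.000155), with the 1 h call lost under equal totals and without replicate 2. At 2 h of IL-4, at 43, 52 and 48, it was 0.53 higher (0.0333), which was lost without replicate 2 or 3.

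The endoplasmic reticulum list, 12 genes of which 11 passed, had more members higher than lower late in IL-4. At 2 h of IL-4 5 were higher and 1 lower, and at 4 h 6 and 1, with median log2 differences of 0.37 and 0.57 beside all-gene medians of -0.00 and 0.02. The backgrounds were 14.3% higher and 13.2% lower at 2 h and 13.4% and 12.5% at 4 h, and these counts were the same under all 3 scalings. Some of the single calls were lost when 1 replicate was left out. At 2 h those of Hsp90b1 and Dnajb9 were lost without replicate 2 or 3 and that of Dnajc16 without replicate 3. At 4 h those of Hspa5, Hsp90b1, Dnajb11 and Dnajb14 were lost without replicate 2, and the first 3 of these also without replicate 3. At 0.5 and 1 h 1 and none were higher (backgrounds 8.15% and 11.1%) and 3 and 2 lower (8.14% and 9.83%). Under LPS the list was split, with 2 higher and 4 lower at 0.5 h (backgrounds 19.6% and 34.4%) and 3 and 3 at 4 h (25.9% and 37.6%). With median-of-ratios scaling these were 3 and 3, and 3 and 2, and with equal totals 2 and 6, and 2 and 6. Higher at 4 h of IL-4 were Hspa5, Hsp90b1, Dnajb9, Dnajb11, Dnajc3 and Dnajc16, and the lower one was Dnajb14.

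Dnajc3 (p58IPK, a J protein partner of BiP) was at 134, 121 and 134 in untreated cells, 209, 249 and 252 at 2 h of IL-4 and 204, 224 and 255 at 4 h. Both later groups were apart from the untreated one. The differences were 0.86 and 0.80 (SE 0.11, adjusted p = 4.29e-05 and 8.57e-05). LPS samples held 76, 63 and 79 at 0.5 h, a difference of -0.83 (0.0296) that was lost with median-of-ratios scaling and without replicate 2 or 3, and 73, 193 and 158 at 2 h, 0.01 (0.975), where replicate 1 again stood low. The direct difference at 4 h was -1.19 ± 0.25 (adjusted p = 0.00018).

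Dnajb11 encodes another lumenal partner of BiP. It held 65, 49 and 58 reads untreated, 115, 123 and 102 at 2 h of IL-4 and 68, 156 and 128 at 2 h of LPS. The IL-4 samples were close together and the LPS samples spread over more than the distance from untreated cells. The differences were 0.98 ± 0.15 (adjusted p = 0.000244) and 0.95 ± 0.26 (0.00506), the latter lost with equal totals and without replicate 2 or 3, and 1.39 without replicate 1. Dnajb9, a lumenal J protein induced by the unfolded protein response and named after its values were seen, was at 15, 22 and 18 untreated and 52, 49 and 48 at 4 h of IL-4, against 6, 19 and 16 at 4 h of LPS. Its differences were 1.41 ± 0.22 (adjusted p = 0.000271) under IL-4 and -0.52 ± 0.39 (0.257) under LPS, and the direct one -1.92 ± 0.33 (1.49e-05).

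Dnajc16 rose late in IL-4 and fell in LPS: it was at 73, 75 and 67 untreated, 99, 136 and 114 at 4 h of IL-4 and 18, 21 and 21 at 1 h of LPS. The groups were apart in both directions. Differences were 0.68 ± 0.11 (adjusted p = 0.000553) and -1.79 ± 0.22 (5.35e-06). Dnajb14, a membrane-bound J protein of the same compartment, fell in both: from 513, 456 and 407 to 78, 83 and 96 at 2 h of LPS and 208, 216 and 182 at 2 h of IL-4. Every stimulated sample at every time was below the untreated range. Differences were -2.41 ± 0.18 (adjusted p = 8.7e-09) and -1.18 ± 0.11 (3.5e-06), and that between the stimuli -1.23 ± 0.15 (1.51e-07).

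**Figure D5:**
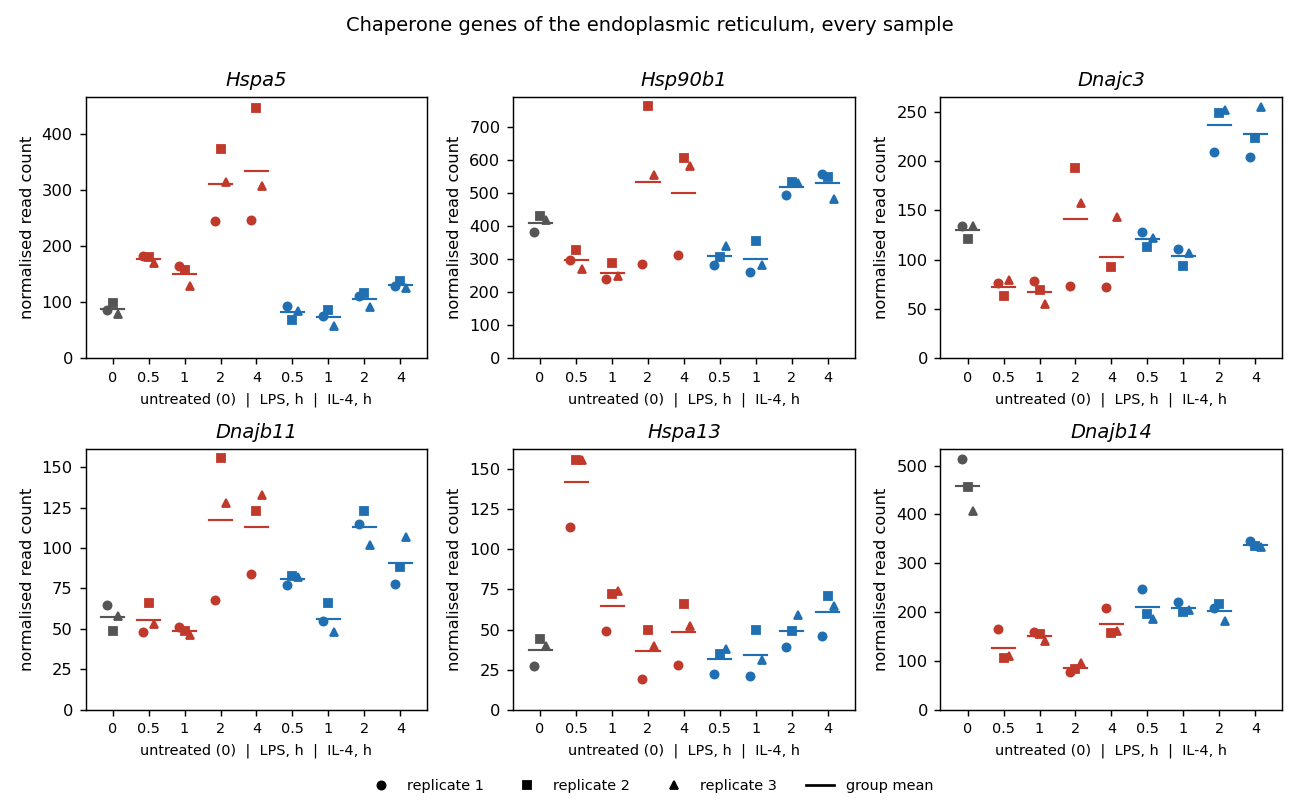
Normalised read count in every sample (symbols for replicates 1 to 3, line for the group mean) of 6 genes of the endoplasmic reticulum, on linear axes from 0; untreated grey, LPS red, IL-4 blue. Hspa5 is above untreated cells at each LPS time, Dnajc3 reaches 204 to 255 reads at 2 and 4 h of IL-4, and replicate 1 is low for Hsp90b1, Dnajc3 and Dnajb11 at 2 h of LPS.

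Mitochondrial members were 10 in the list, of which 9 were tested. At 0.5 h of LPS 1 was higher and 6 were lower (backgrounds 19.6% and 34.4%), and at 4 h none and 1 (25.9% and 37.6%). With median-of-ratios scaling these were 1 and 5, and 1 and none, and with equal totals none and 8, and none and 4. At 4 h of IL-4 4 were higher and none lower (13.4% and 12.5%), and 2 and none with median-of-ratios scaling. The 4 were Dnaja3, Dnajc11, Dnajc15 and Hspd1, and the call of Dnaja3 was also lost without any 1 replicate. Hspd1 (Hsp60, the mitochondrial chaperonin, chr1:55077833-55088243, minus strand) was at 33, 27 and 25 in untreated cells and 86, 47 and 50 at 4 h of IL-4, where replicate 1 was the highest. The difference of 1.04 ± 0.27 (adjusted p = 0.011) was lost without replicate 2 or 3; at 1 and 2 h, 0.46 and 0.74 were called with the replicate block alone (0.0322 and 0.00133). Under LPS it stayed at 13 to 35 reads with no call, though -0.63 at 0.5 h passed with the replicate block (0.0349). Its partner Hspe1 (Hsp10), which starts from the same promoter region and overlaps it by 96 bp, had 4 to 10 reads untreated and 7 to 10 at 4 h of IL-4, with no call against untreated cells at any time.

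Hspa9 (mortalin, the mitochondrial Hsp70) was at 56, 54 and 55 untreated and 115, 83 and 75 at 0.5 h of LPS, with no overlap (0.69 ± 0.21, adjusted p = 0.0114), a call lost with equal totals and without replicate 2 or 3. At 4 h of IL-4, 103, 65 and 77 gave 0.54 (0.0723; 0.0151 with the replicate block). Dnajc11, of the inner membrane organising system, was at 59, 52 and 69 untreated and 111, 98 and 82 at 4 h of IL-4 (0.68 ± 0.17, adjusted p = 0.0101, lost without replicate 2).

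Dnajc15, a J protein of the mitochondrial import motor (chr14:77826217-77874917, minus strand), moved against itself in the 2 courses. It held 107, 99 and 97 reads untreated, 19, 31 and 21 at 0.5 h, 17, 18 and 16 after 1 h and 66, 77 and 82 at 4 h of LPS, and 165, 177 and 164 at 0.5 h and 140, 122 and 120 at 4 h of IL-4. All LPS samples lay below and all IL-4 samples above the untreated range. Differences were -2.08, -2.50, -1.17 and -0.43 (SE 0.21, adjusted p = 7.13e-07, 5.31e-08, 0.000124 and 0.0803) and 0.73, 0.72, 0.77 and 0.33 (SE 0.09, adjusted p = 5.22e-05, 4.4e-05, 2e-05 and 0.0141). The 4 h IL-4 call was lost with median-of-ratios scaling and without replicate 2 or 3. Directly compared, the LPS value was lower, at -3.22 ± 0.15 on the log2 scale at 1 h (adjusted p = 1.67e-14), or 9.31-fold.

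Setting LPS against IL-4 at the same time in 1 fit of all 27 samples gave 15 chaperone genes higher and 30 lower in LPS at 0.5 h (backgrounds 18% and 35.8%), 16 and 25 at 1 h (24% and 40.5%), 12 and 22 after 2 h (26.4% and 42.3%) and 14 and 25 at 4 h (26.1% and 41.9%). With median-of-ratios scaling the counts were 21 and 23, 17 and 16, 15 and 16, and 18 and 18, and with equal totals 9 and 35, 9 and 38, 8 and 39, and 8 and 40. Under all 3 scalings 9 were higher and 23 lower at 0.5 h, 9 and 16 after 1 h, 8 and 16 after 2 h, and 8 and 18 at 4 h. The 15 higher at 0.5 h include Hsf5, which passed the filter only through its LPS samples of that time. Dnaja2, Hspa5 and Hspa8 were higher in LPS at each of the 4 times under every scaling, and Bag4, Dnajc15, Dnajc16, Dnajc18, Dnajc24 and Hsph1 were lower; Bag4 and Dnajc18 were named after their values were seen. Bag4, an anti-apoptotic Bag protein, was at 21, 32 and 36 untreated, 2, 1 and 4 at 1 h of LPS and 29, 26 and 22 at 1 h of IL-4.

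Other parts of the folding machinery, none of them in the 60, were read from lists chosen for their role. All 8 genes of TRiC, the cytosolic chaperonin, were tested: 1, 6, 6 and 5 were higher at the 4 times of LPS and none, 4, 7 and 5 at those of IL-4, with none lower in either. Backgrounds for higher calls were 19.6%, 24.8%, 26.9% and 25.9% under LPS and 8.15%, 11.1%, 14.3% and 13.4% under IL-4. For LPS the counts higher were 2, 7, 8 and 7 with median-of-ratios scaling, and none, 2, 1 and 2 with equal totals, where 5 were lower at 0.5 h. Their median log2 difference reached 1.01 at 1 h of LPS and 0.61 at 2 h of IL-4. Of 19 Hsp70 and Hsp90 co-chaperones, 5 were higher and 9 lower at 0.5 h of LPS and 6 and 4 at 4 h. These are 26.3% and 47.4%, and 31.6% and 21.1%, beside backgrounds of 19.6% and 34.4%, and 25.9% and 37.6%. With median-of-ratios scaling they were 5 and 6, and 9 and 4, and with equal totals 3 and 14, and 2 and 8. Under IL-4 3 and 1 were called at 0.5 h (8.15% and 8.14%) and 6 and none at 4 h (13.4% and 12.5%). Stip1 (Hop), which hands clients from Hsp70 to Hsp90, went from a mean of 47.7 to 220 reads at 0.5 h of LPS (2.19 ± 0.14, adjusted p = 4.85e-09). Of 6 prefoldin genes 5 were tested; none was higher and 2 were lower at 0.5 h of LPS, the latter 40% beside a background of 34.4%; 1 was lower with median-of-ratios scaling and 4 with equal totals. At 2 and 4 h of IL-4 2 were higher and none lower (backgrounds 14.3% and 13.4% higher), with 1 higher at 4 h under median-of-ratios scaling.

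Of 20 genes for folding in the endoplasmic reticulum and the unfolded protein response, 15 were tested. Among those left out, Atf4, Hyou1 and P4hb stood at exactly 0 in all 27 samples, as did Dnajb12 of the endoplasmic reticulum list. Whether these zeros come from the cells or from the counting was not tested. At 2 and at 4 h of IL-4 8 were higher and none lower (backgrounds 14.3% and 13.2%, and 13.4% and 12.5%). At the same times of LPS 5 were higher and 4 lower, and 4 and 5, which is 33.3% and 26.7%, and 26.7% and 33.3%, beside backgrounds of 26.9% and 39%, and 25.9% and 37.6%. With median-of-ratios scaling the LPS counts were 7 and 4, and 5 and 4, and with equal totals 1 and 7, and 1 and 6. Ern1, the sensor IRE1, had a mean of 702 reads in untreated cells, 2105 at 2 h of IL-4 and 135 at 2 h of LPS (1.59 ± 0.14 and -2.38 ± 0.13, adjusted p = 2.08e-06 and 3.97e-10). Xbp1, whose RNA IRE1 splices, went from 74.3 to 186 and 146 (1.31 ± 0.15 and 0.95 ± 0.22, adjusted p = 1.57e-05 and 0.00138). Pdia4, a disulphide isomerase, rose to 316 from 58.7 at 2 h of IL-4 (2.40 ± 0.18, adjusted p = 2.76e-07). These, and Stip1, were picked as examples after their values were seen.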

How the data were processed

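Chromatin-associated RNA of 27 BMDM samples was sequenced in 9 groups of 3. Libraries were made by Smart-seq2 with random primers and read single-end. Per the labels and the study's methods, reads were aligned with TopHat2 to mm10, multi-mapping and blacklisted reads were removed, and genes of the RefSeq annotation were counted; whether strand was used is not given in the sources used here. The deposited values are a score: read counts normalised by the authors on invariant genes and rounded to whole numbers. They are not raw counts, so no count test was run and the depth is unknown. The numbers of samples and genes limit the precision.

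From these values log2(value + 1) was fitted with limma 3.58.1 (R 4.3.3, trend) over the 13901 genes with at least 10 in at least 3 samples. Each stimulus was fitted with the untreated samples, giving an F test and 4 contrasts, and LPS was set against IL-4 in a fit of all 27; p-values were Benjamini-Hochberg adjusted over all genes tested, with a threshold of 0.05. A rise or fall in the text is such a call. The code was tested on simulated data. The study's impulse model was not run.

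The genes, lists and tests were chosen with earlier results of these data known. Named genes were 17 fixed ones and, for each stimulus, up to 8 with the largest rise and 8 with the largest fall among genes whose F test passed, whose groups did not overlap and whose higher group had a mean of at least 50. Others are said to be named after their values were seen. The 11 alternatives were pseudocount 8, median-of-ratios rescaling, equal totals, a mean of at least 50, no filter, a replicate block, replicates 2 and 3 averaged, each replicate left out, and sample weights.

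Replicate numbers come from the labels. Same-numbered samples deviated together in 12 of 12 pairs of untreated and IL-4 groups (correlation 0.207 to 0.680) and 12 of 12 of LPS and IL-4 groups (0.192 to 0.632). Counts of those comparisons are therefore also given with the replicate block where their total moved by over 1.5 times, and so are some single calls. Not every call that the block changed is given. Among those left out above, the block called Hspa8 at 0.5 h of IL-4 (-0.46, limma adjusted p = 0.0479, against 0.0557 without it). It also called Bag1 and Hspd1 for LPS against IL-4 at 1 h (0.45 and -0.62, adjusted p = 0.0185 and 0.00861). No column was left without a sample.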

Additional observations from a re-analysis of the deposited data

Results flagged for a closer look

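Of the chaperone genes, 8 were called higher at one time and lower at another under LPS, and 1 under IL-4. The share of all genes tested that did so was not counted. For each the later time was set against the earlier one in the same limma fit, with p adjusted over all genes tested. Under LPS the change from 0.5 to 2 h was 3.19 ± 0.22 (SE, log2, adjusted p = 4.47e-09) for Bag1 and 0.92 ± 0.15 (8.79e-05) for Dnajc11. The 2 h call of Dnajc11 that places it here (0.36, adjusted p = 0.0496) was lost without any 1 replicate, with the replicate block and with equal totals, which turned its sign. From 0.5 to 4 h it was 2.94 ± 0.26 (8.72e-08) for Dnajc2, 2.16 ± 0.15 (4.16e-09) for Dnajc7, -1.79 ± 0.28 (4.18e-05) for Hspa14 and -3.86 ± 0.19 (1.09e-10) for Dnajb4. From 0.5 to 1 h it was 1.60 ± 0.18 (4.24e-06) for Hsf1. With equal totals the higher calls of Dnajc2, Dnajc7 and Hsf1 and the 0.5 h call of Hspa14 were lost. Hsf5 changed by -3.37 from 0.5 to 1 h, a value with no test here, since it passed the filter only through its 0.5 h samples and had to differ. Under IL-4 the change from 1 to 4 h was 0.83 ± 0.11 (0.000153) for Hsp90b1. These genes were picked by the calls that the change compares, so their differences describe the courses. Dnajc2, a ribosome-bound J protein, was at 33, 28 and 25 in untreated cells, 4, 6 and 8 at 0.5 h of LPS and 60, 50 and 45 at 4 h, with no overlap at either time.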

How the results depend on the processing

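The counts of chaperone genes called under IL-4 were the least stable. With equal totals 11 were called at 0.5 h in place of 7. With the replicate block, which the pairing of untreated and IL-4 samples allows, 12 were called at 0.5 h and 20 at 1 h in place of 11. With replicates 2 and 3 averaged the counts were 2, 5, 11 and 10 at the 4 times, and 15 changed over the course in place of 25. Leaving out 1 replicate gave 2 to 8, 5 to 13, 7 to 19 and 7 to 21 at the 4 times and 13 to 27 over the course. A mean of at least 50 left 35 of the 60 genes to test; LPS counts were then 26, 24 and 21 at 0.5, 1 and 4 h and 34 over the course, and those of LPS against IL-4 27, 27 and 25 at the same times. Leaving out 1 replicate gave 21 to 35 at 2 h of LPS and 27 to 40 for LPS against IL-4 at 1 h. For LPS, 11 of 12 same-numbered pairs with untreated samples correlated above 0.1 (lowest 0.0897, median 0.269, beside a median of 0.283 for LPS with IL-4). Because of that 1 pair the numbers were not taken as a pairing there. The block gave 48, 41, 38 and 36 calls. With it Hspa13 and Hsp90b1 were called at 1 h of LPS (adjusted p = 0.000968 and 0.00723), Hsf2 at 4 h (0.00425) and Dnajb1 at 2 h (0.0326). Hspd1 and Hspe1 were called at 0.5 h of LPS (0.0349 and 0.0446). None of these was called without the block. Among single genes, 1 value turned under each of 3 settings that leave out a replicate, none of them called: Hsp90aa1 at 0.5 h of IL-4, whose log2 difference ran from -0.047 without replicate 2 through -0.0076 without replicate 1 to 0.62 without replicate 3, and Hspe1 at 2 h of IL-4, which ran from -0.069 without replicate 3 to 0.85 without replicate 2. The causes were not tested, other than the fewer genes or samples of those settings. The rounding of the deposited values limits genes below about 10 reads.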
